A study of Mus musculus with 45 samples.

Results

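Macrophage-rich and macrophage-poor tumours were drawn from 45 mouse mammary tumours by the measured expression of 3 macrophage genes. The 24 tumours were chosen by these measured values: all 45 were ranked by the mean log2 expression of Csf1r, Cd68 and Mrc1, each on its probe set of highest mean among those with 1 gene symbol. The 12 tumours with the highest mean are called macrophage-rich and the 12 with the lowest are called macrophage-poor, and the 21 ranked between them belong to neither set. The names follow that rule, and no cell was counted in these data.

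Every tumour grew from a BALB/c mammary fragment lacking the tumour suppressor gene Trp53, placed in the inguinal mammary fat pad of a wild-type BALB/c female host of 10 weeks. Endogenous epithelium had been cleared from these hosts at 3 weeks. Hosts, not fragments, had received 10, 30 or 80 cGy of silicon (Si) ions or a sham procedure 3 days before transplantation, and tumours were removed at 1 cm3 within a follow-up of 600 days. There were 18 tumours from sham hosts, 9 at 10 cGy, 10 at 30 cGy and 8 at 80 cGy, each on its own array, so that all groups share the Trp53-null transplant and the wild-type host. Expression of Trp53 was not analysed here, for want of a probe set annotated to it alone. The epithelial keratin gene Krt8 was high on every array of both sets, at 10.82 to 13.00 log2 in macrophage-rich tumours and 10.17 to 13.10 log2 in macrophage-poor tumours. Array medians lay between 5.48 and 5.75 in the macrophage-rich set and between 5.62 and 5.75 in the macrophage-poor set, on the same log2 scale.

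Macrophages are phagocytes that settle in nearly every tissue and are often abundant in mammary tumours. They depend on the receptor CSF1R, which binds the ligands CSF1 and IL-34, and monocytes are drawn from the blood by chemokines such as CCL2. In tumours they clear dying cells, present antigen, and release growth factors and enzymes that remodel the matrix. CD68 is a glycoprotein of the macrophage lysosome, and MRC1 is the mannose receptor, which takes up glycoproteins and is carried by many resident and alternatively activated macrophages.

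The marker mean was 10.54, 10.91 and 11.45 (lowest, median and highest, log2) in the 12 macrophage-rich tumours, against 7.61, 8.67 and 9.03 in the 12 macrophage-poor tumours. The 21 tumours between ran from 9.04 to 10.49 with a median of 9.54. The values therefore had no gap at either border. The lowest macrophage-rich tumour stood at 10.54 and the next tumour at 10.49, while the highest macrophage-poor tumour stood at 9.0337 and the next above it at 9.0431. Mrc1 separated the sets most, with 10.11 to 11.71 log2 in macrophage-rich tumours, against 5.57 to 8.30 log2 in macrophage-poor tumours. Csf1r lay between 10.36 and 11.72 log2 in macrophage-rich tumours, against 7.61 and 9.87 log2 in macrophage-poor tumours. For Cd68 the ranges were 10.61 to 11.44 log2 in macrophage-rich tumours and 8.68 to 9.95 log2 in macrophage-poor tumours. The set means differed by 3.53 log2 for Mrc1, 2.13 for Csf1r and 1.74 for Cd68. These 3 genes chose the tumours, so their values are a description and were not tested. In a bulk tumour, fewer macrophages and less macrophage RNA per cell cannot be told apart.

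Host dose was not used in the ranking, and no test of dose passed on group means or on counts in the sets. Sham tumours spread most widely, with an SD of 1.29 against 0.64, 0.85 and 0.78 at 10, 30 and 80 cGy, and spread was not tested. The 5 highest ranks all belonged to sham tumours, and so did the 3 lowest. Of the 18 sham tumours, 6 were macrophage-rich, 7 lay between and 5 were macrophage-poor. At 10 cGy, 1 of 9 tumours was macrophage-rich, 4 lay between and 4 were macrophage-poor. At 30 cGy the split of the 10 tumours was 2, 6 and 2, and at 80 cGy the split of the 8 tumours was 3, 4 and 1. Together, Si hosts gave 6 of the 12 macrophage-rich tumours and 7 of the 12 macrophage-poor tumours, and sham hosts gave the other 6 and 5 (Fisher's exact test, two-sided, odds ratio 0.714, p = 1).

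**Figure D1:**
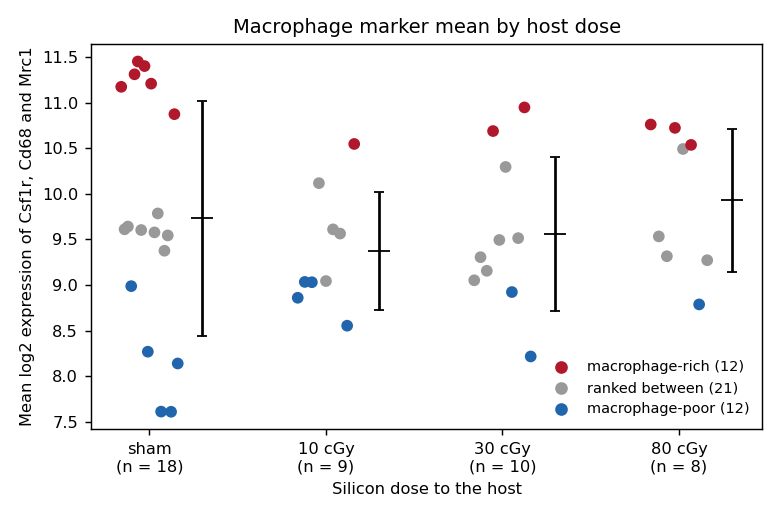
Mean log2 expression of Csf1r, Cd68 and Mrc1 in each of 45 tumours (points), by silicon dose to the host, with the group mean and SD (bars). Macrophage-rich tumours are at or above 10.54, macrophage-poor tumours at or below 9.03, and sham tumours hold both the highest and the lowest values.

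The marker mean averaged 9.73 ± 1.29 log2 in sham tumours (SD, n = 18), 9.37 ± 0.64 at 10 cGy (n = 9), 9.56 ± 0.85 at 30 cGy (n = 10) and 9.93 ± 0.78 at 80 cGy (n = 8). The difference from sham was −0.36 ± 0.37 log2 (SE) at 10 cGy (exact permutation test, p = 0.44). It was −0.17 ± 0.40 at 30 cGy (permutation test, p = 0.706) and 0.20 ± 0.41 at 80 cGy (exact permutation test, p = 0.695). For all 27 Si tumours against 18 sham tumours it was −0.13 ± 0.34 (permutation test, p = 0.683). All tests were two-sided, and all 4 p-values adjusted to 0.706. Every difference was smaller than the SD of any group, and with errors of this size a shift in either direction may be missed.

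Some tumours carry the same label code apart from an added L or R, whose meaning the labels do not give. The 8 such pairs included sham tumours 5 and 6, both macrophage-rich at 11.40 and 11.21, and tumours 6 and 7 at 10 cGy, both macrophage-poor at 9.03 and 8.55. In another pair, sham tumour 9 was macrophage-rich at 11.17 and sham tumour 8 macrophage-poor at 8.14. The sham codes also begin with either of 2 digits. Of the 10 sham tumours whose code begins with 5, 5 were macrophage-rich and 2 macrophage-poor (median marker mean 10.41). Of the 8 whose code begins with 6, 1 was macrophage-rich and 3 were macrophage-poor (median 9.49). Whether these codes mark litters, dates or sides was not stated in the labels. The dose tests took the tumours of the 8 pairs as separate.

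Across the other 12120 genes kept, the 2 sets differed widely in expression. With limma and Benjamini-Hochberg adjustment, 4045 genes passed an adjusted p of 0.05, or 33.4% of those tested. Of these, 2152 were higher in macrophage-rich tumours (17.8% of genes tested) and 1893 were lower (15.6%). The difference reached 1 log2 in 883 of the higher and 700 of the lower genes, and the median over all genes was −0.015. In 231 genes every macrophage-rich tumour lay above every macrophage-poor tumour (1.91%), and in 16 genes every macrophage-rich tumour lay below (0.132%). Because the sets were cut from measured expression, a p here tells whether a gene goes with the 3 ranking genes over these tumours. For genes of macrophages themselves, differences are given below as a description.

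Epithelial junction genes moved with the ranking, which touches every later result. An epithelial junction score was taken as the mean, over 27 junction genes, of log2 expression minus the gene's mean over all 45 tumours. It was −2.70, −1.51 and 0.15 (lowest, median and highest) in macrophage-rich tumours, against −0.38, 0.96 and 1.37 in macrophage-poor tumours. The score lay under −1 in 9 tumours, of which 7 were macrophage-rich, 2 lay between and none was macrophage-poor. The 5 other macrophage-rich tumours overlapped the macrophage-poor range or came close to it. With this score as a covariate in the fit, 887 genes passed (7.32%), 679 higher (5.6%) and 208 lower (1.72%). The score went with the sets, and the errors of many genes were larger in that fit. The endothelial gene Pecam1 went from 0.91 ± 0.18 to 0.84 ± 0.30 log2 (SE) and no longer passed. The epithelial gene Epcam went from −3.16 ± 0.59 to 0.42 ± 0.36 log2. A call lost there can come from a smaller difference, a larger error or both, and these were not separated. Of the genes called higher without the covariate, 643 were called higher with it (29.9% of 2152 and 94.7% of 679). For lower genes, 139 were shared (7.34% of 1893 and 66.8% of 208). In a comparison added after the data were seen, the 9 tumours were removed and sets of 12 were drawn again from the remaining 36 tumours, which lowered the border of the macrophage-rich set to 9.60. There 1179 genes were higher (9.73%) and 444 lower (3.66%). All 12 macrophage-poor tumours kept their set, and 5 of the macrophage-rich tumours did.

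**Figure D2:**
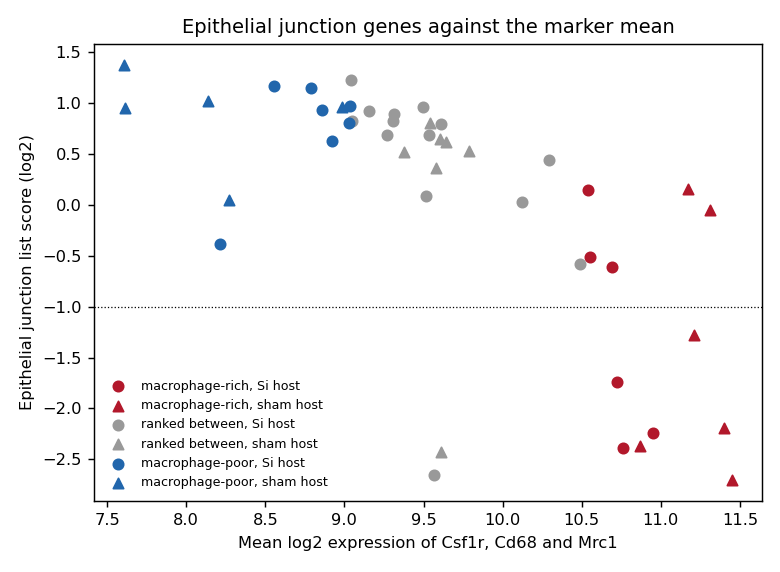
Epithelial junction list score (27 genes, log2, centred on the 45 tumours) against the mean log2 expression of the 3 ranking genes, for each tumour, coloured by set, with circles for Si hosts and triangles for sham hosts. The dotted line marks a score of −1, with 7 macrophage-rich tumours and 2 tumours ranked between the sets under it.

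Other macrophage genes followed the ranking genes. Of 21 macrophage identity genes tested, 19 passed as higher and none as lower in macrophage-rich tumours, with a median difference of 1.75 log2. Adgre1, which encodes the F4/80 antigen, was at 8.83, 10.02 and 10.77 log2 in macrophage-rich tumours (lowest, median and highest), against 7.26, 8.09 and 8.69 log2 in macrophage-poor tumours. The 2 ranges did not meet, and the difference was 2.00 ± 0.20 log2 (SE), or 3.99-fold. Itgam, the integrin chain CD11b of myeloid cells, was at 9.18, 9.97 and 10.75 log2 in macrophage-rich tumours, against 5.62, 7.17 and 8.49 log2 in macrophage-poor tumours. Folr2, a folate receptor of resident macrophages, was at 7.90, 9.66 and 10.67 log2 in macrophage-rich tumours, against 5.34, 6.58 and 7.53 log2 in macrophage-poor tumours. Neither gene's sets overlapped, with differences of 2.71 ± 0.29 log2 for Itgam and 2.91 ± 0.31 log2 for Folr2. Siglec1, a sialic acid receptor of macrophages, differed by 2.42 ± 0.24 log2, with ranges that met only at their edges. Vsig4, Lyve1 and Cd163, 3 further markers of resident macrophages, varied more inside the macrophage-rich set. Lyve1, for example, ran from 5.54 to 11.57 log2 there, against 5.11 to 6.87 log2 in macrophage-poor tumours, and Cd163 from 5.35 to 10.04 log2, against 4.51 to 5.76 log2. The 2 genes that did not pass were Clec7a, the β-glucan receptor dectin-1, at 0.68 ± 0.27 log2, and Cd14, the lipopolysaccharide co-receptor, at 0.43 ± 0.40 log2. Marco and Timd4 did not pass the filter on low values.

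Genes of the lineage's growth factors and of related receptors were also higher in macrophage-rich tumours, and 5 of the 5 tested passed. Csf2 and Csf3 did not pass the filter on low values. Csf1 was at 9.46, 10.09 and 10.78 log2 in macrophage-rich tumours, against 7.13, 8.66 and 9.59 log2 in macrophage-poor tumours. Only the edges of these ranges met, and the difference was 1.46 ± 0.24 log2 (adjusted p = 4.34e-05). Il34 encodes the other CSF1R ligand and was 1.23 ± 0.31 log2 higher (adjusted p = 0.00299). The receptor genes Csf2rb, Csf2ra and Csf3r differed by 1.63 ± 0.23, 0.73 ± 0.28 and 1.55 ± 0.35 log2. Csf3r is also counted with the neutrophil genes below. With the junction score as a covariate, 1 of the 5 genes passed, Csf2rb, and the difference of Csf1 was 1.17 log2 (adjusted p = 0.071).

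Monocyte chemokines and their receptors had the largest median among the lists of macrophage genes, 2.40 log2, with 10 of 13 tested genes higher and none lower. Ccl2, the main chemokine for monocytes that carry CCR2, was at 9.73, 10.91 and 12.17 log2 in macrophage-rich tumours, against 6.98, 7.67 and 9.37 log2 in macrophage-poor tumours. Its neighbour Ccl7, another ligand of CCR2, was at 10.13, 10.75 and 12.38 log2 in macrophage-rich tumours, against 6.67, 7.67 and 9.33 log2 in macrophage-poor tumours. Neither gene overlapped between the sets, and the differences were 2.97 ± 0.28 log2 (7.84-fold) for Ccl2 and 3.09 ± 0.30 log2 (8.49-fold) for Ccl7. Ccr2, the receptor of both, differed by 2.51 ± 0.34 log2, Ccl6 by 2.81 ± 0.36, Ccl12 by 2.68 ± 0.29 and Ccr1 by 2.40 ± 0.29. Cx3cl1, the membrane-bound ligand of CX3CR1, differed by −0.43 ± 0.34 log2 and did not pass (adjusted p = 0.344).

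Among myeloid transcription factors, 7 of 13 tested genes were higher and none lower. Spi1 encodes PU.1, the lineage factor of macrophages, and was at 9.36, 10.20 and 10.69 log2 in macrophage-rich tumours, against 7.00, 8.27 and 9.13 log2 in macrophage-poor tumours. The sets did not overlap. Differences were 1.79 ± 0.23 log2 for Spi1, 2.23 ± 0.23 for Maf, 2.19 ± 0.21 for Tfec, 1.26 ± 0.17 for Irf5 and 1.22 ± 0.18 for Irf8. Cebpb, which is active in many cell types, differed by −0.37 ± 0.17 log2 and did not pass (adjusted p = 0.1).

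Genes for uptake and killing followed. In the complement list 10 of 12 genes were higher, with a median of 1.47 log2. The C1q chains, which macrophages make and which tag dying cells, differed by 1.70 ± 0.19 log2 (C1qa), 1.23 ± 0.18 (C1qb) and 1.77 ± 0.21 (C1qc). Cfp, encoding properdin of the alternative complement pathway, was at 9.74, 10.68 and 11.09 log2 in macrophage-rich tumours, against 7.74, 8.20 and 9.17 log2 in macrophage-poor tumours. The anaphylatoxin receptors C3ar1 and C5ar1 differed by 1.85 ± 0.21 and 2.36 ± 0.27 log2. None of these 6 genes overlapped between the sets. Itgax, which encodes CD11c and is higher on dendritic cells, was at −0.52 ± 0.22 log2 and did not pass (adjusted p = 0.0761). It was 0.28 log2 with the junction covariate and 0.15 log2 without the 9 junction-poor tumours.

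Of 15 Fc receptor and ITAM signalling genes, 14 were higher, among them the Fcγ receptors Fcgr2b (2.23 ± 0.21 log2), Fcgr3 (2.06 ± 0.20) and Fcgr4 (1.37 ± 0.26). The adaptors Tyrobp and Fcer1g differed by 1.69 ± 0.20 and 1.72 ± 0.20 log2, the lipid-sensing receptor Trem2 by 2.10 ± 0.22 and the kinases Btk and Syk by 1.98 ± 0.19 and 1.52 ± 0.17. Among 13 phagocytosis receptor genes, 10 were higher and 1 lower. The scavenger receptor Stab1 was at 9.95, 10.53 and 11.23 log2 in macrophage-rich tumours, against 7.51, 8.12 and 8.70 log2 in macrophage-poor tumours, a difference of 2.37 ± 0.17 log2 with no overlap. Lrp1, a large endocytic receptor, differed by 1.76 ± 0.14 log2, and the receptors for apoptotic cells Axl and Mertk by 1.34 ± 0.17 and 1.32 ± 0.21 log2. The gene lower in macrophage-rich tumours was Mfge8, a secreted bridge to apoptotic cells that mammary epithelium also makes, at −0.68 ± 0.22 log2 (adjusted p = 0.0168). Its difference was 0.08 log2 with the junction covariate. Gas6, the ligand of Axl and Mertk, differed by −0.94 ± 0.46 log2 and did not pass (adjusted p = 0.116).

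Lysosomal genes were higher in 11 of 15 cases and lower in none, with a median of 0.82 log2. The cathepsin gene Ctsk differed by 2.52 ± 0.34 log2, Hexa, a subunit of β-hexosaminidase, by 1.42 ± 0.15, Ctsc by 1.28 ± 0.22 and the cholesterol carrier Npc2 by 0.97 ± 0.12. Pattern recognition genes were higher in 14 of 18 cases. The RNA-sensing receptors Tlr8 and Tlr13 differed by 2.33 ± 0.22 and 2.02 ± 0.27 log2, the fungal lectin receptor Clec4n by 2.41 ± 0.26 and the inflammasome genes Nlrp3 and Aim2 by 1.29 ± 0.21 and 1.06 ± 0.16.

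Activation genes divided less cleanly than identity genes. In the alternative activation list 5 of 12 tested genes were higher and none lower (median 0.63 log2). In the classical activation list 4 of 14 were higher and none lower (median 0.58 log2), beside 17.8% of all genes higher. Retnla, Chil3, Il10 and Pdcd1lg2 of the alternative list, and Il12a and Il12b of the classical list, did not pass the filter on low values. The interleukin-4 receptor gene Il4ra was 1.68 ± 0.27 log2 higher and the chemokine gene Ccl24 1.80 ± 0.43 log2 higher. Arg1, the arginase of alternatively activated macrophages, was at 5.55, 9.34 and 10.97 log2 in macrophage-rich tumours, against 5.76, 8.30 and 10.80 log2 in macrophage-poor tumours. Its sets covered almost the same range, and it did not pass (0.74 ± 0.56 log2, adjusted p = 0.33). On the classical side, the costimulatory genes Cd86 and Cd80 were 1.41 ± 0.18 and 1.38 ± 0.26 log2 higher, while Il1b and Il6 differed by 0.75 ± 0.35 and 1.27 ± 0.54 log2 and did not pass (adjusted p = 0.103 and 0.0705). Ptgs2, the inducible cyclooxygenase, was at 7.86, 11.34 and 12.63 log2 in macrophage-rich tumours, against 4.80, 8.08 and 10.85 log2 in macrophage-poor tumours. It was 3.09 ± 0.58 log2 higher (8.52-fold, adjusted p = 0.000187), with ranges that overlapped over about 3 log2. With the junction covariate Ptgs2 was at 2.49 ± 0.96 log2 and did not pass (adjusted p = 0.111), and it passed without the 9 junction-poor tumours (2.13 ± 0.60 log2).

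Metabolic genes of macrophages gave 4 higher and 1 lower of 11 lipid genes, and 4 higher and 1 lower of 10 haem and iron genes. Abca1, the cholesterol exporter, was 1.18 ± 0.17 log2 higher with no overlap. Hmox1, which breaks down haem, was 2.14 ± 0.37 log2 higher and the phagosomal metal transporter Slc11a1 1.67 ± 0.23 log2 higher. Apoc1, an apolipoprotein gene, was lower, at −2.58 ± 0.65 log2, with 4.59, 6.14 and 9.64 log2 in macrophage-rich tumours, against 5.13, 9.69 and 10.99 log2 in macrophage-poor tumours (adjusted p = 0.00347). With the junction covariate Apoc1 was at −2.01 ± 1.08 log2 and did not pass (adjusted p = 0.256). Its neighbour Apoe was 0.71 ± 0.13 log2 higher. Tfrc, the transferrin receptor of dividing cells, was lower at −1.02 ± 0.23 log2.

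Of 17 genes for secreted growth and matrix factors, 12 were higher and 1 lower. Timp1, an inhibitor of matrix metalloproteinases, was at 9.90, 11.98 and 12.34 log2 in macrophage-rich tumours, against 7.10, 9.15 and 10.15 log2 in macrophage-poor tumours (2.89 ± 0.31 log2, adjusted p = 1.56e-07). Igf1 differed by 2.08 ± 0.30 log2, Tgfbi by 1.41 ± 0.21, the urokinase gene Plau by 1.10 ± 0.18, the collagenase Mmp14 by 1.00 ± 0.14 and Tgfb1 by 0.73 ± 0.18. Pdgfb was lower at −0.98 ± 0.24 log2 (adjusted p = 0.00237), and with the junction covariate it was at −0.65 ± 0.39 log2 and did not pass. Fibroblasts and tumour cells make several of these factors too, and the share of each source was not tested.

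The MHC class II chains themselves showed no call in either direction. Of 9 class II and dendritic cell genes tested, 3 were higher, beside 17.8% of all genes, and none was lower. The list's median difference was −0.019 log2, beside −0.015 over all genes, and was 0.41 log2 with the junction covariate and 0.29 log2 without the 9 junction-poor tumours. H2-Ab1, a chain of the class II molecule, was at 7.13, 8.51 and 9.13 log2 in macrophage-rich tumours, against 7.13, 8.63 and 9.50 log2 in macrophage-poor tumours. The sets covered nearly the same range, and the difference was −0.18 ± 0.28 log2 (adjusted p = 0.652). The genes that passed were H2-DMa (0.86 ± 0.17 log2), which loads peptide on class II, Ccr7 (0.59 ± 0.16), which guides dendritic cells to lymph nodes, and Cst3 (0.39 ± 0.09). The list score was −0.84 to 0.44 in macrophage-rich tumours and −1.05 to 0.41 in macrophage-poor tumours. Dendritic cell genes Flt3, Zbtb46, Xcr1, Clec9a and Siglech did not pass the filter on low values. None of 20 type I interferon response genes passed in either direction, with a median of 0.26 log2. Rsad2, Ifit2 and Ifit3 differed by 0.71 ± 0.36, 0.61 ± 0.32 and 0.70 ± 0.41 log2. In the class I and interferon-γ list 3 of 15 genes were higher, near the 17.8% of all genes, and the list median was −0.11 log2. The higher genes were led by the immunoproteasome gene Psmb10 at 1.08 ± 0.19 log2 (adjusted p = 0.000102).

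**Figure D3:**
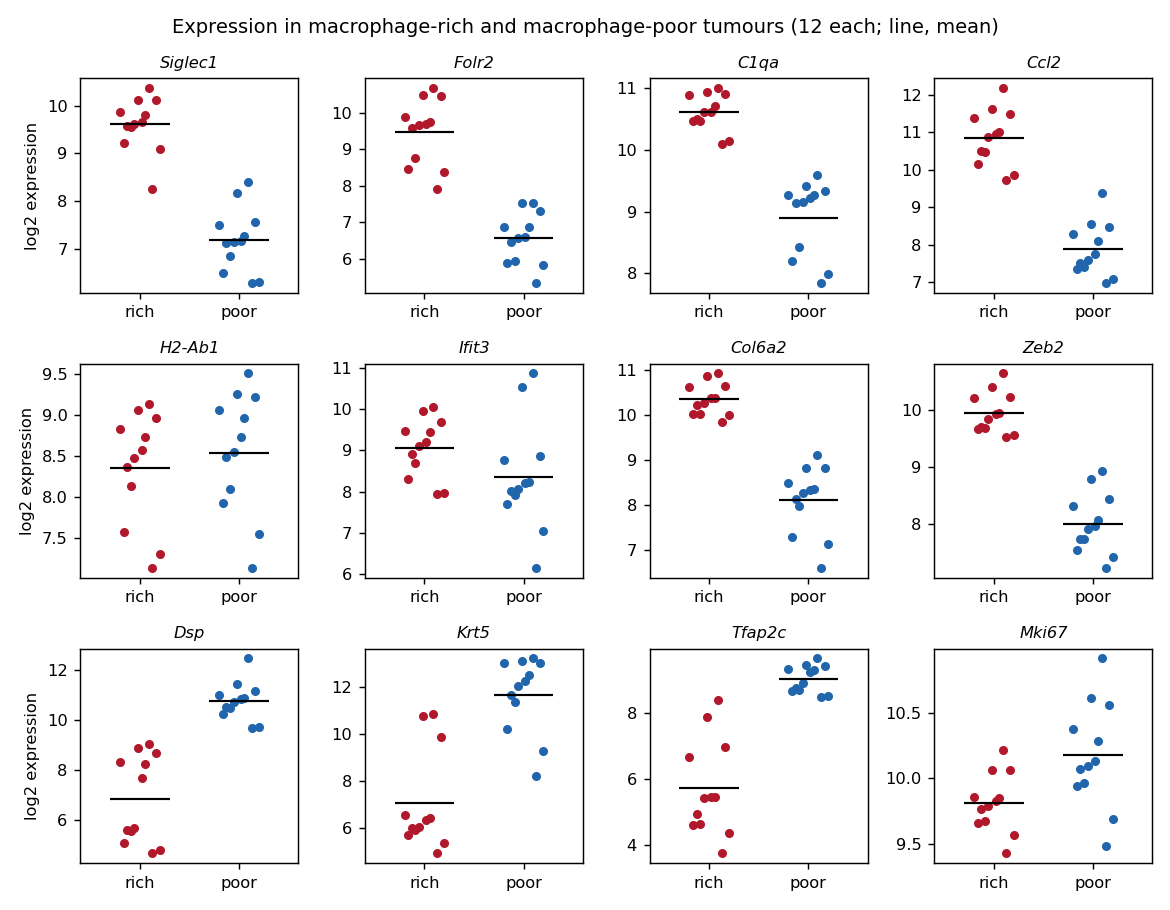
Log2 expression of 12 genes in each of 12 macrophage-rich tumours (left in each panel) and 12 macrophage-poor tumours (right), with lines at the set means and a separate vertical scale for each gene. The sets do not overlap for Folr2, C1qa, Ccl2, Col6a2, Zeb2, Dsp and Tfap2c, and they cover nearly the same range for H2-Ab1.

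Markers of other leukocytes were higher in part, and their share in the differences above was not tested. For mast cells and eosinophils, 6 of 7 tested genes were higher, and the list score was −0.60 to 2.71 (median 0.81) in macrophage-rich tumours, against −1.16 to 0.35 (median −0.85) in macrophage-poor tumours. The mast cell carboxypeptidase gene Cpa3 was at 4.75, 7.46 and 10.98 log2 in macrophage-rich tumours, against 3.92, 4.56 and 7.30 log2 in macrophage-poor tumours (2.89 ± 0.54 log2, adjusted p = 0.000171). The mast cell tryptase gene Tpsab1 differed by 2.35 ± 0.34 log2. With the epithelial junction score in the fit, 4 of the 7 genes passed, and without the 9 junction-poor tumours none did. The mast cell genes Fcer1a, Ms4a2 and Cma1 and the eosinophil genes Prg2, Epx and Ccr3 did not pass the filter. The tested genes are therefore mostly those of mast cells, and the count says little about eosinophils. For neutrophils 6 of 10 genes were higher, with Cxcl5, a neutrophil chemokine, at 2.72 ± 0.50 log2 and Cxcr2, its receptor, at 1.73 ± 0.56 log2. S100a8, an abundant neutrophil gene, ranged from 5.24 to 9.02 log2 in macrophage-rich tumours and from 4.67 to 10.99 log2 in macrophage-poor tumours and did not pass (adjusted p = 0.414). None of the 10 neutrophil genes passed with the junction covariate (median 0.64 log2), and 5 did without the 9 junction-poor tumours (median 1.19 log2, beside 1.40 with all tumours).

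T cell genes were higher in 5 of 10 tested cases, beside 17.8% of all genes, by less than the macrophage genes (median 0.46 log2). Cd3d, Cd247, Cd2, Cd6, Cd28, Zap70 and Trat1 did not pass the filter on low values. Cd3g and Cd3e, chains of the T cell receptor complex, differed by 1.01 ± 0.26 and 0.77 ± 0.24 log2 (adjusted p = 0.00353 and 0.0134). Cd8b1 was 0.52 ± 0.16 log2 higher, and Cd4 and Cd8a, at 0.40 ± 0.21 and 0.40 ± 0.17 log2, did not pass (adjusted p = 0.144 and 0.0721). Of 14 natural killer and cytotoxic genes measured, 6 passed the filter and were tested, and all 6 were higher. Gzmb was at 1.37 ± 0.28 log2 and Nkg7 had an adjusted p of 0.000573. Ncr1, Klrb1c, Klrk1, Prf1, Ifng, Eomes, Tbx21 and Fasl did not pass the filter, so the list lacks many of its defining genes. With the junction covariate, 1 of the 10 T cell genes and none of the 6 cytotoxic genes passed, and without the 9 junction-poor tumours 1 and 2 did. Over all genes, 5.6% and 9.73% were higher in these fits. The T cell gene was Thy1 in both fits, at 1.75 and 1.54 log2, beside 1.40 ± 0.28 log2 in the first comparison. Cd3g, Cd3e and Cd8b1 passed in neither, and whether Thy1 stands for T cells here was not tested. Of 5 B and plasma cell genes tested, 2 were higher and 1 lower, the B cell coactivator Pou2af1 at −1.49 ± 0.41 log2 (adjusted p = 0.00651). Most of the 13 measured, among them Cd79a, Ms4a1 and Pax5, did not pass the filter. Checkpoint genes were higher in 7 of 12 tested cases, with the largest difference for Vsig4 (3.03 ± 0.46 log2), which is also a macrophage identity gene. Pdcd1, Ctla4, Btla and Pdcd1lg2 did not pass the filter. The myeloid inhibitory receptors Cd200r1 (1.80 ± 0.20 log2) and Lilrb4a (1.70 ± 0.22) did not overlap between the sets. Every macrophage-poor value of Cd200r1 lay under the filter level of 5.67 log2 (4.08 to 5.45). Vsir, Tigit and Havcr2 differed by 1.48 ± 0.19, 1.47 ± 0.25 and 1.38 ± 0.30 log2. With the junction covariate Vsir passed, while Tigit and Havcr2 were at 0.53 ± 0.35 and 0.73 ± 0.48 log2 and did not. Cd47, the signal against phagocytosis that macrophages read, was 0.69 ± 0.17 log2 higher (adjusted p = 0.0026). Cd274, encoding PD-L1, differed by 0.36 ± 0.29 log2 and did not pass (adjusted p = 0.368).

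Epithelial genes ran the other way. Of 27 junction genes 24 were lower and none higher (median −2.23 log2), of 18 luminal genes 14 were lower (median −1.85), and of 16 basal and myoepithelial genes 14 were lower (median −2.28), with none higher in either list. Dsp, the desmosome protein desmoplakin, was at 4.66, 6.67 and 9.04 log2 in macrophage-rich tumours, against 9.69, 10.78 and 12.47 log2 in macrophage-poor tumours. Tfap2c, a transcription factor of luminal cells, was at 3.75, 5.45 and 8.41 log2 in macrophage-rich tumours, against 8.48, 9.07 and 9.66 log2 in macrophage-poor tumours. Neither gene overlapped between the sets, and the differences were −3.91 ± 0.52 log2 (adjusted p = 2.56e-06) for Dsp and −3.33 ± 0.41 log2 (adjusted p = 1.03e-06) for Tfap2c.

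Krt5, a keratin of basal cells, was at 4.93, 6.21 and 10.83 log2 in macrophage-rich tumours, against 8.22, 12.14 and 13.21 log2 in macrophage-poor tumours. The macrophage-rich tumours split here, since 3 of the 12 overlapped the macrophage-poor range and 9 lay under it (−4.59 ± 0.72 log2, adjusted p = 2.43e-05). Trp63, the p63 factor of basal cells, differed by −2.84 ± 0.47 log2, and Cdh1 and Epcam, adhesion genes of epithelium, by −2.60 ± 0.44 and −3.16 ± 0.59 log2. Not every epithelial gene was lower. Krt8 and Acta2, the smooth muscle actin of myoepithelium and myofibroblasts, differed by −0.52 ± 0.31 and −0.34 ± 0.32 log2 and did not pass (adjusted p = 0.21 and 0.436). Sox10, listed here with nerve genes and also active in mammary progenitors, was lower at −3.16 ± 0.47 log2 (adjusted p = 1.03e-05). It was at −0.79 ± 0.49 log2 with the junction covariate, where it did not pass, and at −1.63 ± 0.49 log2 without the 9 junction-poor tumours, where it did. Of 12 milk genes 1 was higher and 1 lower, shares below those of all genes.

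**Figure D4:**
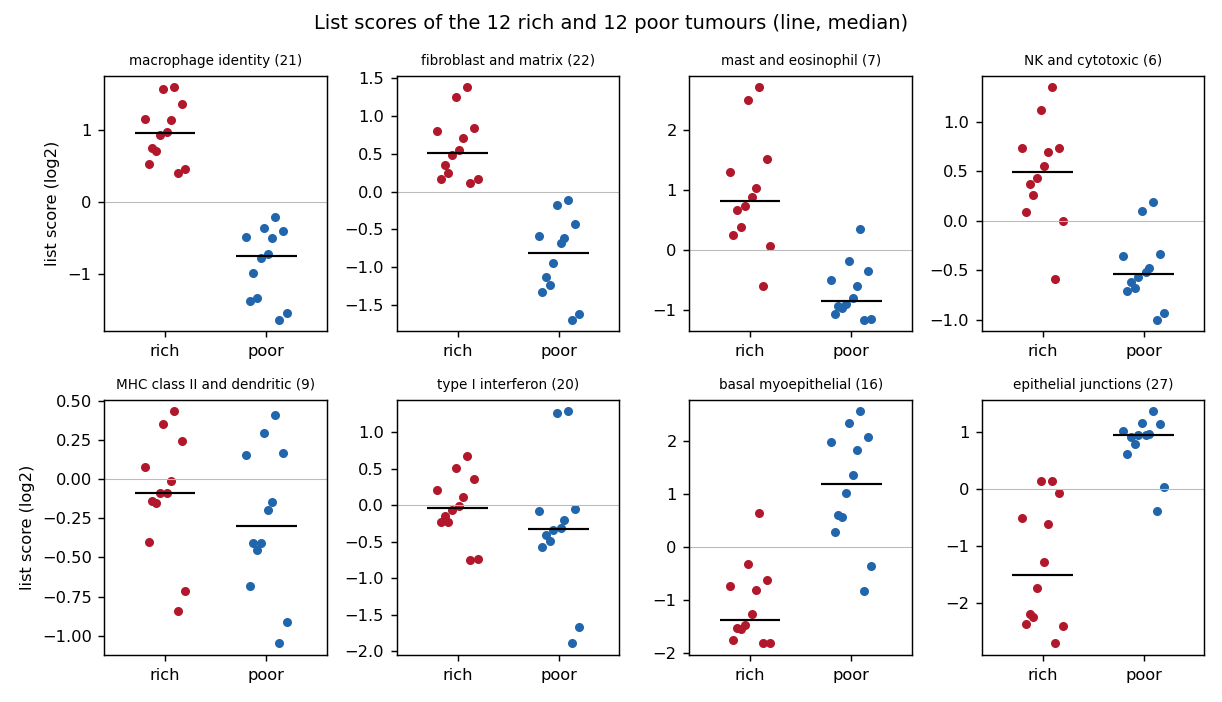
List score (mean over the list's tested genes of log2 expression minus the gene's mean over 45 tumours) in each of 12 macrophage-rich tumours (left) and 12 macrophage-poor tumours (right), for 8 gene lists, with the number of tested genes in parentheses and lines at the set medians. The scores of the macrophage and fibroblast lists do not overlap between the sets, while those of MHC class II and type I interferon genes do.

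With the junction score as a covariate, none of the 14 luminal genes passed any longer, and 2 of the 16 basal genes did, among them Trp63 at −3.58 log2 (adjusted p = 0.0058). The junction genes themselves make up that covariate, so their own value in that fit says nothing. Without the 9 junction-poor tumours, 5 of 27 junction genes, 3 of 18 luminal genes and 3 of 16 basal genes passed as lower. Of the 21 macrophage identity genes, 13 passed as higher with the covariate and 18 without those tumours, with medians of 1.55 and 1.16 log2. The sets were cut on macrophage genes and the covariate was made from epithelial genes. The difference between these lists is therefore a description and not a test.

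**Figure D5:**
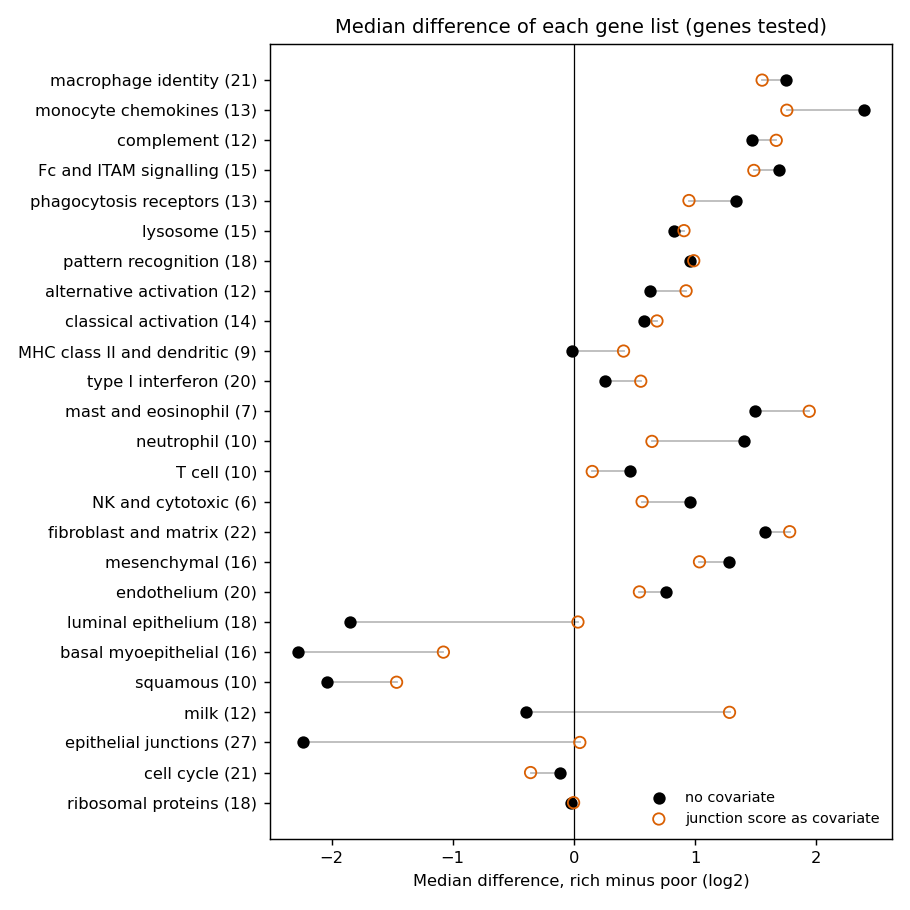
Median difference between macrophage-rich and macrophage-poor tumours (log2, rich minus poor) over the tested genes of each list, in the fit without a covariate (filled) and with the epithelial junction score as a covariate (open). Luminal genes move from −1.85 to 0.03, and macrophage identity genes from 1.75 to 1.55.

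Stromal genes were higher alongside the macrophage genes. Of 22 fibroblast and matrix genes 19 were higher and none lower (median 1.57 log2), and the list score ran from 0.11 to 1.38 in macrophage-rich tumours, against −1.70 to −0.11 in macrophage-poor tumours, with no overlap. Col6a2, a chain of collagen VI, was at 9.85, 10.33 and 10.94 log2 in macrophage-rich tumours, against 6.61, 8.31 and 9.13 log2 in macrophage-poor tumours (2.24 ± 0.23 log2, adjusted p = 9.19e-08). Lox, the enzyme that crosslinks collagen, was at 9.85, 10.50 and 11.51 log2 in macrophage-rich tumours, against 6.20, 8.20 and 9.49 log2 in macrophage-poor tumours (2.65 ± 0.29 log2, adjusted p = 2.08e-07). No macrophage-poor tumour reached the macrophage-rich range for either gene. Pdgfra, a receptor of fibroblasts, differed by 2.71 ± 0.35 log2, Col1a2 by 1.95 ± 0.25 and Col1a1 by 1.66 ± 0.27. Fap, a marker of activated fibroblasts, differed by 0.77 ± 0.33 log2 and did not pass (adjusted p = 0.0738). It passed as higher with the junction covariate (1.68 ± 0.50 log2, adjusted p = 0.041) and without the 9 junction-poor tumours (1.24 ± 0.29 log2, adjusted p = 0.005). When the junction score was a covariate, 15 of the 22 genes passed as higher (median 1.78 log2), and without the 9 junction-poor tumours 20 did.

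In the mesenchymal list 12 of 16 genes were higher. Zeb2, a repressor of epithelial genes that macrophages also express, was at 9.53, 9.90 and 10.65 log2 in macrophage-rich tumours, against 7.23, 7.94 and 8.94 log2 in macrophage-poor tumours (1.94 ± 0.18 log2, adjusted p = 2.39e-08). Zeb1 differed by 2.15 ± 0.24 log2, Snai1 by 2.13 ± 0.32, S100a4 by 3.15 ± 0.43 and Vim by 0.78 ± 0.11. Endothelial genes were higher in 15 of 20 cases (median 0.76 log2), with Cdh5 at 0.99 ± 0.21 log2 and Pecam1 at 0.91 ± 0.18 log2. With the junction covariate 1 of the 20 passed (median 0.54 log2), near the 5.6% of all genes that were higher in that fit. Without the 9 junction-poor tumours 12 of the 20 passed, beside 9.73% of all genes, with a median of 0.77 log2. Fat and muscle genes passed in shares below those of all genes (17.8% higher and 15.6% lower). Of 12 adipocyte genes 1 was higher and 1 lower, and of 14 skeletal muscle genes 1 was lower. A fat or muscle score above 2 was found in 1 macrophage-rich tumour, 6 tumours between and 1 macrophage-poor tumour.

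Ribosomal, respiratory, cell cycle and glycolysis lists had medians between −0.12 and −0.017 log2, beside −0.015 over all genes. Over all genes 17.8% were higher and 15.6% lower, and the counts of these lists lay near or below those shares. None of 18 ribosomal protein genes passed (median −0.022 log2), and 2 of 20 oxidative phosphorylation genes were lower. Of 21 cell cycle genes 2 were lower, the mitotic motor Kif11 at −0.52 ± 0.19 log2 (adjusted p = 0.0356) and the proliferation marker Mki67 at −0.36 ± 0.13 log2 (adjusted p = 0.0387). Of 21 hypoxia and glycolysis genes 4 were lower, led by Egln3 at −1.63 ± 0.30 log2 and Aldoc at −2.19 ± 0.43 log2. With the junction covariate Egln3 and Aldoc were at −1.58 ± 0.50 and −0.31 ± 0.53 log2 and did not pass (adjusted p = 0.051 and 0.76). The unfolded protein response list lay above the share of all genes, with 7 higher genes of 13 and a median of 0.29 log2. TGF-β target genes gave 5 higher, among them Ltbp1 (1.61 ± 0.23 log2), and 3 lower, among them Smad6 (−0.66 ± 0.13 log2), of 14. Of 17 immediate early genes, 2 were higher, Dusp1 at 1.55 ± 0.29 log2 and Klf2 at 1.10 ± 0.15 log2, and 1 was lower. Both shares were below those of all genes.

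Outside the lists, the genes with the smallest p that were higher in macrophage-rich tumours included genes of phagocytes and of fibroblasts. Colec12, a scavenger receptor with a collagen-like stalk, was at 10.17, 10.51 and 10.91 log2 in macrophage-rich tumours, against 7.40, 8.41 and 8.88 log2 in macrophage-poor tumours (2.23 ± 0.16 log2, adjusted p = 6.4e-10). Dab2, an endocytic adaptor, differed by 2.08 ± 0.15 log2, Aoah, which inactivates lipopolysaccharide, by 2.49 ± 0.18 and the lysosomal phospholipase Pla2g15 by 1.93 ± 0.15. Bnc2, a zinc finger factor of mesenchymal cells, was at 8.38, 9.63 and 10.00 log2 in macrophage-rich tumours, against 5.31, 6.06 and 7.18 log2 in macrophage-poor tumours (3.25 ± 0.23 log2, 9.52-fold). No tumour of either set lay inside the other's range for any of these 5 genes. The others of the 12 genes with the smallest p were Zfpm2, Ust, B3galnt1, Snx24, Emp3, Cd34 and Loxl1, with differences of 1.73 to 2.83 log2 and again no overlap. Zfpm2 lay under the filter level of 5.67 log2 in every macrophage-poor tumour (4.07 to 4.92), and at 6.13 to 8.37 log2 in macrophage-rich tumours. Its macrophage-rich values alone were enough for the filter, so its lack of overlap is a description. The largest differences were those of the matrix proteoglycan gene Ogn (3.93 ± 0.41 log2), the axon guidance gene Sema3a (3.70 ± 0.47), the stromelysin Mmp3 (3.65 ± 0.50) and Efemp1, an extracellular matrix protein (3.54 ± 0.45). F13a1, the coagulation factor XIII chain made by resident macrophages, differed by 3.34 ± 0.35 log2 and Vegfd, a lymphatic growth factor, by 3.30 ± 0.31 log2. The mesothelial antigen gene Msln (3.42 ± 0.60 log2) passed no longer with the junction covariate (1.12 log2, adjusted p = 0.4), while Efemp1 was at 4.33 log2 there.

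Lower genes outside the lists were named by the same rule. Gpx2, an epithelial glutathione peroxidase, was at 4.01, 5.54 and 8.06 log2 in macrophage-rich tumours, against 7.97, 9.71 and 10.63 log2 in macrophage-poor tumours (−3.93 ± 0.41 log2, adjusted p = 1.03e-07). Krt23, a keratin of simple epithelia, was at 3.18, 4.16 and 6.73 log2 in macrophage-rich tumours, against 7.45, 8.26 and 9.41 log2 in macrophage-poor tumours (−3.63 ± 0.40 log2, adjusted p = 2.19e-07). The sets did not overlap for Krt23 and met only at their edges for Gpx2. Ephb3, an ephrin receptor, differed by −1.35 ± 0.14 log2, the kinase gene Ripk4 of stratified epithelium by −2.77 ± 0.30 and the actin-depolymerizing factor Dstn by −0.88 ± 0.11, all with no overlap. Rnf43, a ligase that removes Wnt receptors, differed by −2.31 ± 0.26 log2, and Bmp7 by −3.85 ± 0.47 log2. Trim29, which basal epithelial cells express, differed by −3.96 ± 0.60 log2, and Large2, Irx4, Slc5a8, Krt79, Id4 and Il17b by −3.69 to −3.29 log2. Under the junction covariate, 11 of the 12 lower genes with the smallest p still passed, the exception being Frmpd1 (−0.78 log2, adjusted p = 0.053). Most of these differences were smaller there, with Gpx2 at −1.86 log2, Krt23 at −1.70, Ripk4 at −1.20 and Rnf43 at −1.09, while Ephb3 was at −1.23. Of the genes named for their size, Trim29 (−2.75 log2, adjusted p = 0.079), Large2 (−1.28, 0.22), Slc5a8 (−0.51, 0.47), Krt79 (−1.70, 0.29) and Id4 (−2.23, 0.054) did not pass there. Irx4 and Il17b did, at −3.10 and −3.53 log2.

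Precursor probe sets of 64 microRNA genes were tested, and 6 were higher and 3 lower, shares below those of all genes. The genes named here were chosen after their values were seen, and the arrays measured RNA of the precursor region and not the mature microRNA. Mir142, from a locus active in blood cells, was at 4.66, 5.63 and 6.20 log2 in macrophage-rich tumours, against 3.22, 4.55 and 5.27 log2 in macrophage-poor tumours (1.11 ± 0.19 log2, adjusted p = 9.15e-05). Every macrophage-poor value of Mir142 and its macrophage-rich median lay under the filter level of 5.67 log2. Mir200b, which targets Zeb1 and Zeb2 in epithelial cells, was at 3.64, 4.10 and 7.31 log2 in macrophage-rich tumours, against 5.75, 6.77 and 8.08 log2 in macrophage-poor tumours (−2.07 ± 0.40 log2, adjusted p = 0.000278). Its neighbour on chromosome 4, Mir200a, differed by −0.61 ± 0.17 log2 (adjusted p = 0.00688). Both pairs of ranges overlapped, and with the junction covariate Mir200b and Mir200a differed by −0.25 and −0.08 log2 and did not pass, while Mir142 did at 1.25 log2 (adjusted p = 0.02). The mature sequences are shown from RefSeq (GRCm38.p6) because the seed, bases 2 to 8 in capitals, sets the targets of each: miR-142a-3p and both 3p arms of the miR-200 pair have different seeds, and the 5p arms of miR-200a and miR-200b share theirs.
mmu-miR-142a-3p: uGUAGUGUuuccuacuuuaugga
mmu-miR-142a-5p: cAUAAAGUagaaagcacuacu
mmu-miR-200b-3p: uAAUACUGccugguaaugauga
mmu-miR-200a-3p: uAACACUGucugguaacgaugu
mmu-miR-200b-5p: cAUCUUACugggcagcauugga
mmu-miR-200a-5p: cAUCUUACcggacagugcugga

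Mir134, Mir668 and Mir485 are neighbours on chromosome 12, within a large imprinted microRNA cluster, and were higher by 0.92 ± 0.28, 0.37 ± 0.13 and 0.50 ± 0.19 log2. Their differences were larger with the junction covariate, at 1.81, 0.66 and 1.05 log2, and all 3 passed in both fits. Most of their values lay below the table median of 5.67, so they stand close to the low end of the array's range.

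Promoters were searched for the core bound by PU.1, the product of Spi1. The letters GAGGAAGT were sought on both strands in the RefSeq window of 300 bases around each gene's start, and no other motif was searched. A gene with several windows counted as a match where any held it. The motif stood in 3.67% of the windows of 9654 tested genes, in 6.09% of 1674 genes higher in macrophage-rich tumours and in 2.22% of 1531 lower genes. A match is a run of letters and not a bound site, and these shares were not tested. As examples, it is shown in capitals in the 250 bases before the start of the complement gene C1qc and of Pirb, an inhibitory receptor of myeloid cells that was 1.97 ± 0.22 log2 higher. In Pirb it reads GAGGAAGT on the gene's strand, and in C1qc the complementary strand carries it, so that ACTTCCTC is read. The regions are chr4:136892915-136893164 for C1qc and chr7:3720383-3720632 for Pirb, both on the minus strand of GRCm38.p6.
C1qc: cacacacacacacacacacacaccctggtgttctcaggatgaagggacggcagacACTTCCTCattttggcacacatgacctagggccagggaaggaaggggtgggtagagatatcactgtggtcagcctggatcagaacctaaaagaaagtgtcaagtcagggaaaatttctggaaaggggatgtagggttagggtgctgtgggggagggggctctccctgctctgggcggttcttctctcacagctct
Pirb: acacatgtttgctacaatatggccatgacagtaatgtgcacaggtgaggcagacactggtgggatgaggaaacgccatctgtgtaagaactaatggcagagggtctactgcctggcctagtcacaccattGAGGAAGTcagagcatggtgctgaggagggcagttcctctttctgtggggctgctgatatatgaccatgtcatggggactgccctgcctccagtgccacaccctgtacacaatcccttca

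The comparison was repeated inside each kind of host. Among Si tumours alone, the 7 highest against the 7 lowest gave 2015 genes (16.6%), and among sham tumours alone, the 5 highest against the 5 lowest gave 1621 genes (13.4%). Both lists held 1027 genes, 51% of the Si list and 63.4% of the sham list, and all 1027 had the same sign in both. These sets share no tumour, but both were cut on the same 3 genes. Whether the relation itself depended on host irradiation was tested over all 45 tumours with an interaction term of the marker mean and Si exposure. No gene passed with limma (0% of 12120, lowest adjusted p = 0.418), and 585 genes had an unadjusted p under 0.05. The smallest p was that of Osr2, a transcription factor, whose log2 expression changed by 1.42 ± 0.18 (SE) per log2 of the marker mean in Si tumours, against 0.39 ± 0.13 in sham tumours.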

How the data were processed

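Expression was measured in 45 tumours, each on a single-colour Affymetrix array. Values were deposited as log2 expression for each probe set, made by the authors with RMA in the oligo package, per the submitters' processing notes. Tool versions were not given in the sources used here. Of 35556 probe sets, 21218 carried 1 symbol in the platform annotation, 1881 several and 12457 none, and genes with several probe sets were read from the one of highest mean. A gene was kept where it lay above the table median of 5.67 in at least 8 tumours, which left 12123 genes, or 12120 without the 3 ranking genes. The number of arrays limits precision, and since the labels do not say that tumours came from separate hosts, p-values measure the spread between these tumours.

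The 24 tumours of the 2 sets were fitted with limma 3.58.1 in R 4.3.3 (lmFit and eBayes, two-sided, Benjamini-Hochberg over 12120 genes, threshold 0.05). On simulated data of the 12120 genes for this comparison, it recovered 31.6% of genes shifted by 0.5 log2, 80.6% at 1 and 97.6% at 2. The simulation shifted few genes and drew the noise of each gene independently, unlike these data, so recovery here may differ. Dose was tested by permutation (exact where a group held under 10 tumours, otherwise 100000 resamples). The sets, the 42 gene lists (719 entries) and the tests were chosen with earlier results of these data known. Named from each list were up to 5 called genes a side by p and the defining markers, and outside the lists the 12 of smallest p and the 10 of largest difference a side, of which the text takes a part. Uncalled genes beyond the defining markers, and the microRNA genes, were picked after their values were seen. Alternatives covered set size, ranking genes, filter, probe sets, centring, weights, covariates, blocks and leaving out each tumour. Repeat numbers only count tumours within a dose group, so they do not pair them.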

Additional observations from a re-analysis of the deposited data

Results flagged for a closer look

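2 tumours stood far from the rest of their dose group in the epithelial junction score, by the gap to the nearest tumour divided by the group's range. At 10 cGy, tumour 1 had a score of −2.655, while the other tumours lay between −0.5103 and 1.226 (gap over range 0.553). It ranks between the sets, with a marker mean of 9.56. At 30 cGy, tumour 4, which is macrophage-rich with a marker mean of 10.95, had a score of −2.242, while the others lay between −0.6092 and 0.9648 (gap over range 0.509). The check covered 18 groups of values, and chance alone marks about 1 in 20.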

How the results depend on the processing

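The count of 4045 genes stayed within 1.5 times under all alternatives other than those given here. It was 887 with the junction score as a covariate, 1621 in sham hosts only, 2015 in Si hosts only and 1623 without the junction-poor tumours (chosen after seeing the data). The sets inside 1 kind of host are also smaller, and the errors of many genes were larger with the junction covariate. Leaving out each of the 24 tumours in turn gave 3737 to 4310. With the repeat number as a replicate block the count was 4124 (consensus correlation 0.041, 9 numbers held by more than 1 tumour). With the shared label code as a block it was 3844 (consensus correlation 0.349, 3 codes held by 2 tumours of the 24). No group difference in dose passed under any alternative. With the junction covariate the differences from sham reversed to 0.018 log2 for 30 cGy and 0.025 log2 for all Si hosts. The interaction gave 0 genes in the 3 alternatives as well (lowest adjusted p 0.442).

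Of 214 genes of the lists and rule, 65 kept their sign but no longer passed with the junction covariate, and 43 did so without the junction-poor tumours. Among the 214 genes, 8 changed sign in any setting. With the junction covariate these were Itgax (0.28), Mfge8 (0.078), H2-Ab1 (0.33), Epcam (0.42), Krt8 (0.49), Krt18 (0.74), Serpinb5 (0.31) and Cdh1 (0.13), none of them past the threshold there. Without the junction-poor tumours these were Itgax (0.15), Mfge8 (0.0026) and H2-Ab1 (0.24). H2-Ab1 also did with 10 tumours in each set (0.015) and in sham hosts only (0.47). Cdh1 is among the junction genes that make up the covariate, so its change in that fit says nothing. The cause of the other changes was not tested. Array number limits what smaller differences could be seen.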
